A study of Homo sapiens with 10 samples.

Results

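The genes described here are 38 genes of ATF4 signalling and of the endoplasmic reticulum (ER) stress response, out of 32152 genes in the count table. They were taken by symbol from the authors' deposited table of knockout against wild type and joined by gene identifier to the counts of all 10 libraries. All 38 were found and all passed the filter on low counts. By role, 13 belong to the ATF4 branch (ATF4, its relatives and its targets), 14 are chaperones and folding enzymes of the ER lumen, 4 act in ER-associated degradation, 5 are stress sensors or their factor XBP1, and 2 (PPP1R15B and SESN3) stand outside these groups. PolyA RNA came from WAe009-A (H9) cells, an established human embryonic stem cell line, with 5 libraries labelled as KCNH2 knockout and 5 wild-type (WT) libraries. KCNH2 encodes hERG1, a voltage-gated potassium channel. Knockout cells (KCNH2-/-) were kept in mTeSR plus and WT cells in TeSR-E8, both on Matrigel, so genotype and medium cannot be told apart in any difference given here. The genotype field calls the edited cells a knockdown, while the titles and growth protocol call them a knockout. The titles of all 5 knockout libraries begin with the same number, which the WT titles lack. Whether the knockout libraries derive from 1 clone, and whether replicates are separate cultures, is not stated in the labels. The p-values therefore measure the spread between these libraries, which may be technical.

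The unfolded protein response couples the folding load of the ER to transcription and translation. Its sensors PERK (EIF2AK3), IRE1 (ERN1) and ATF6 sit in the ER membrane. PERK, and the amino acid sensor GCN2 (EIF2AK4), phosphorylate the translation factor eIF2, which lowers protein synthesis in general while favouring translation of ATF4. ATF4 is a transcription factor that activates genes for amino acid supply, translation restart and cell death. ATF6 and spliced XBP1 instead activate genes for chaperones and degradation of misfolded proteins. Total mRNA counts per gene report neither ATF4 protein nor eIF2 phosphorylation, and they do not separate spliced from unspliced XBP1.

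Library totals were 29788732 to 40587206 counts in the knockout and 28615751 to 47319933 counts in WT. Levels below are CPM, which are counts per 1e6 of the TMM-scaled library size. KCNH2 mRNA measured 11.2 to 13.2 CPM in the knockout libraries against 14.7 to 16.4 CPM in the WT libraries, for a log2 ratio of -0.35 (edgeR, SE 0.061, adjusted p = 6.48e-04), so the transcript was lower but present in the libraries labelled knockout. Summed levels of 6 pluripotency genes were 5498 to 5928 CPM in the knockout and 4733 to 5006 CPM in WT. POU5F1 made up most of that difference, at 3214 CPM on average in the knockout and 2617 CPM in WT. NANOG and LIN28A were also called higher, and SOX2, TDGF1 and DNMT3B did not pass the test. Sums of markers of other lineages were 1.34 to 1.65 CPM in the knockout against 3.64 to 6.57 CPM in WT for endoderm and 4.25 to 7.87 CPM against 8.43 to 9.77 CPM for trophoblast. Fibroblast markers summed to 88.3 to 99.4 CPM in the knockout and 123 to 127 CPM in WT. Mesoderm, neural and fetal liver markers each summed to under 2 CPM in every library of both groups. COL3A1 was at 0 in all WT libraries, and COL1A1 made up most of the fibroblast sum. The part of these markers in the results was not tested. In bulk RNA, a change in the share of cells and a change in RNA per cell cannot be told apart. On a principal component that held 28.3% of the variance, knockout 3 (-59.1), WT 3 (-32.2) and WT 2 (-10.1) stood apart from the other libraries (-2.3 to 13.9 in the knockout, 25.0 to 35.8 in WT). The share of counts in pseudogenes was 0.947% in knockout 3, 1.07% in WT 2 and 0.871% in WT 3, against 1.61% to 1.95% in the other 7 libraries. The mitochondrial share of counts was 3.48% to 3.77% in the knockout and 3.86% to 4.78% in WT, without overlap, and its part in the results was not tested. Counts were therefore also obtained without these 3 libraries.

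Both branches have known response elements near their transcription starts, and the promoters of the genes were searched for these. RefSeq windows (GRCh38.p14) running from 250 bases before to 50 bases after the transcription start were matched to 36 of the 38 genes. They were searched on both strands for TGATGNAA (the core of the C/EBP-ATF response element that ATF4 dimers bind), CCAAT with CCACG 9 bases on (the ER stress response element, read by ATF6 with NF-Y), ATTGG with CCACG 1 base on (a further form of that element) and TGACGTGG (the unfolded protein response element). Matches are in capitals in the windows printed here, which were chosen to show 2 genes of the ATF4 branch, 4 chaperone genes and 1 degradation gene, each window 5′ to 3′ on the strand of its gene.
CHAC1 promoter, chr15:40953221-40953520, plus strand: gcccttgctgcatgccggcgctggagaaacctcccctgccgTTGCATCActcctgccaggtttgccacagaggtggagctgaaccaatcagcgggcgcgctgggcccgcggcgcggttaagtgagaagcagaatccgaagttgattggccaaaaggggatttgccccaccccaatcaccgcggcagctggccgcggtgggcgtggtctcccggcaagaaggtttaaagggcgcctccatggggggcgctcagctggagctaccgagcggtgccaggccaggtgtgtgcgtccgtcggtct
ASNS promoter, chr7:97872359-97872658, minus strand: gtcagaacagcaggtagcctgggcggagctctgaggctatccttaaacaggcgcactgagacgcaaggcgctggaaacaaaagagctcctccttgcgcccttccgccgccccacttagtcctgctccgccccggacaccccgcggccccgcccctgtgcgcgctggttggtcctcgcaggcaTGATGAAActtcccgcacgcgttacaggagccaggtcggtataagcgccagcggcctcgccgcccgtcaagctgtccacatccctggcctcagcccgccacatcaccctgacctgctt
HSPA5 promoter, chr9:125241294-125241593, minus strand: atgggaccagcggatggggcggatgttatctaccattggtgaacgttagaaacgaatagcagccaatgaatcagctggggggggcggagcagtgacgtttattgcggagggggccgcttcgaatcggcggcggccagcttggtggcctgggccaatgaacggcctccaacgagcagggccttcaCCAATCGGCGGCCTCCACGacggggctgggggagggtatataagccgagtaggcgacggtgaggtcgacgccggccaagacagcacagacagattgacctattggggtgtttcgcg
HSP90B1 promoter, chr12:103930160-103930459, plus strand: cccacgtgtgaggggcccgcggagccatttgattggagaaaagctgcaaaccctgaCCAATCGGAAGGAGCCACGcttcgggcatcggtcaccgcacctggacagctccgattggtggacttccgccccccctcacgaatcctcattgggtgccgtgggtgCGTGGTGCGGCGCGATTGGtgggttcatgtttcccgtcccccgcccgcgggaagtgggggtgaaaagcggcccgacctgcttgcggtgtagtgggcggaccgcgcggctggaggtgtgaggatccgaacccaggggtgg
CALR promoter, chr19:12938359-12938658, plus strand: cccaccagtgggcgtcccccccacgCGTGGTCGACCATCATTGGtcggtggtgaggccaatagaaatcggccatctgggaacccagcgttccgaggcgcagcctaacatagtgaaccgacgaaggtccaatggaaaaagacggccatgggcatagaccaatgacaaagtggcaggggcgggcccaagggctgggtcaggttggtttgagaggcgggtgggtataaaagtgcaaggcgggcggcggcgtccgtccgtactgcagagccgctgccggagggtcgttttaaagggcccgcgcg
HYOU1 promoter, chr11:119057156-119057455, minus strand: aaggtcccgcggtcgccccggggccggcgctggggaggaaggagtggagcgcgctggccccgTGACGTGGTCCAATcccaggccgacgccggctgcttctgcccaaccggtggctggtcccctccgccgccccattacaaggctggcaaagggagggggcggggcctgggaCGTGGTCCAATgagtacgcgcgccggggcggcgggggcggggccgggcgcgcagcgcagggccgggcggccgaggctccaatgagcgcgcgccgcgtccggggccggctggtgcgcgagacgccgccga
HERPUD1 promoter, chr16:56931892-56932191, plus strand: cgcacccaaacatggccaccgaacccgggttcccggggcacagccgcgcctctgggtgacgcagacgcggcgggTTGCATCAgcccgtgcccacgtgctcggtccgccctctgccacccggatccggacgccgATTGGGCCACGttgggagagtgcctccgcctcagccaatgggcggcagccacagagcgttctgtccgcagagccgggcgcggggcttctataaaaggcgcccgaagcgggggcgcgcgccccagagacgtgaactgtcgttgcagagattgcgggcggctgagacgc
TGATGNAA was present in 2 of 12 ATF4-branch windows (CHAC1 and ASNS), in 0 of 13 chaperone windows and in those of HERPUD1 and PPP1R15B, against 3.62% of all 35116 windows. The CCAAT and CCACG pair was present in 5 of 13 chaperone windows (HSPA5, HSP90B1, CALR, CANX and CRELD2), in that of XBP1 and in 0 of 12 ATF4-branch windows, against 0.0769% of all windows. The ATTGG and CCACG pair was found in 2 of 13 chaperone windows (SDF2L1 and HYOU1) and in that of HERPUD1, against 0.0541% of all windows. TGACGTGG was found in HYOU1 alone among these genes, where it overlaps a match of the ATTGG and CCACG pair, and in 0.729% of all windows. The remaining 10 ATF4-branch windows held none of the 4 motifs, which says only that these letters were not found within those bases.

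Of the 38 genes, 12 were higher in the knockout and 6 were lower, and 20 did not pass the test. In the ATF4 branch, 11 of 13 genes were higher in the knockout, none was lower, and the 2 others (CEBPB and CEBPG) did not pass the test. Across all 19163 tested genes, 46.0% were called, 21.9% higher and 24.1% lower, so a call by itself is common in this comparison. The ATF4-branch median log2 fold change was 0.61, against 0.0018 over all tested genes, and all 13 fold changes were positive. In 10 of the 13 genes every knockout library lay above every WT library, which was the case for 16.3% of all tested genes. A call means a Benjamini-Hochberg adjusted p under 0.05 over all tested genes in the quasi-likelihood test of edgeR. The map of each gene by library shows the ATF4 branch higher in the knockout, while most chaperone genes stay near their WT mean.

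**Figure D1:**
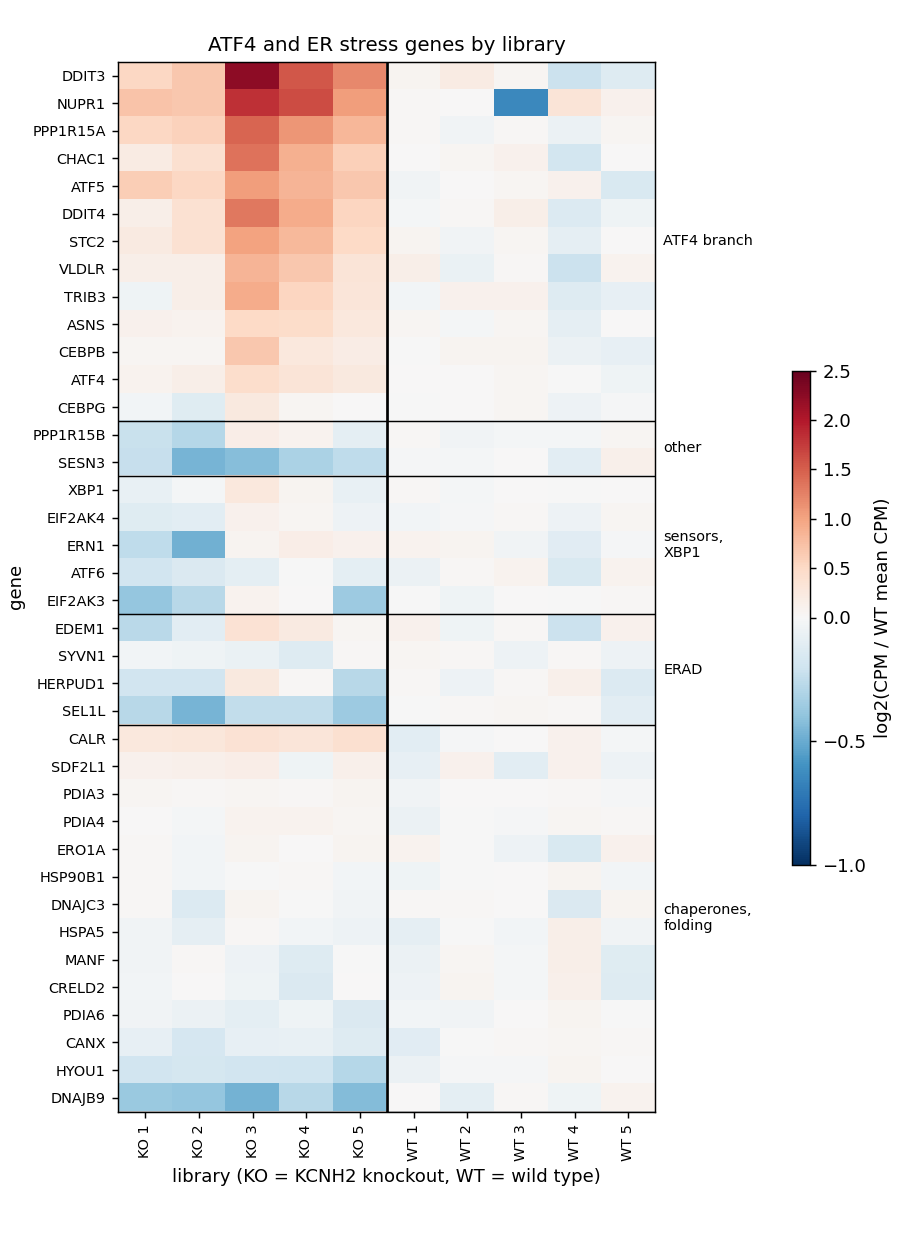
Colour map of the log2 ratio of CPM to the WT mean CPM for the 38 genes (rows, grouped by role) in 5 knockout libraries (left) and 5 WT libraries (right). Red is above and blue below the WT mean, with a wider scale above 0 than below, and the reddest cells are DDIT3 and NUPR1 in knockout 3.

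ATF4 itself, on chromosome 22 (chr22:39519695-39522685, GRCh38, plus strand), was among the abundant genes and changed modestly. It measured 518, 539, 661, 607 and 579.6 CPM in knockout replicates 1 to 5, against 488, 488, 502, 486 and 473 CPM in WT replicates 1 to 5. Every knockout library lay above every WT library, with a mean of 581 ± 56.7 CPM in knockout libraries and 488 ± 10.4 CPM in WT libraries (SD, n = 5 libraries each). The log2 fold change was 0.25 (edgeR, SE 0.056, adjusted p = 0.0031). The table also holds 4 ATF4 pseudogenes at up to 28.5 CPM, whose reads the counting could share with ATF4. ATF5 (chr19:49928702-49933935, plus strand) encodes a related bZIP factor whose translation is also favoured when eIF2 is phosphorylated. It measured 18.4, 17.4, 24.8, 21.7 and 19.3 CPM in knockout replicates 1 to 5, against 11.8, 12.3, 12.5, 13 and 10.9 CPM in WT replicates 1 to 5, again without overlap. Its log2 fold change was 0.75 (edgeR, SE 0.091, adjusted p = 4.79e-05). ATF5 overlaps NUP62 and IL4I1, of up to 120 CPM on average, and the labels give no strand setting for the counting.

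DDIT3 (chr12:57516588-57521737, minus strand) encodes CHOP, a transcription factor that promotes cell death under prolonged ER stress, and it had the largest fold change of the 38 genes. It measured 5.95, 6.68, 19.7, 12.2 and 9.54 CPM in knockout replicates 1 to 5, against 4.35, 4.79, 4.29, 3.59 and 3.81 CPM in WT replicates 1 to 5. The lowest knockout library lay above the highest WT library, and knockout 3 was the highest of all. The means were 10.8 ± 5.53 CPM in knockout libraries and 4.17 ± 0.476 CPM in WT libraries (SD, n = 5 libraries each), a log2 fold change of 1.37 (edgeR, SE 0.28, adjusted p = 0.00199). Without knockout 3 the log2 fold change was 1.04 (adjusted p = 0.00104). Exons of DDIT3 overlap MARS1, which averaged 408 CPM over all libraries and had a log2 fold change of -0.051 (adjusted p = 0.365). CEBPB and CEBPG, C/EBP factors that can dimerise with ATF4, had log2 fold changes of 0.26 (adjusted p = 0.0566) and 0.034 (adjusted p = 0.644). CEBPB measured 44.6, 44.7, 68.9, 51.8 and 49.0 CPM in the knockout libraries and 43.0, 45.3, 45.2, 41.5 and 40.6 CPM in the WT libraries, and only knockout 3, 4 and 5 exceeded every WT library. Its difference passed the test without knockout 1 (adjusted p = 0.0296), knockout 2 (0.0323) or knockout 3 (0.0497).

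PPP1R15A (chr19:48872392-48876057, plus strand) encodes GADD34, the stress-induced subunit that directs dephosphorylation of eIF2. It measured 24.3, 25.2, 46.6, 36.6 and 30.5 CPM in knockout replicates 1 to 5, against 17.3, 16.6, 17.4, 16.3 and 17.6 CPM in WT replicates 1 to 5. All 5 knockout libraries lay above WT, and WT libraries differed from each other by little. Its log2 fold change was 0.94 (edgeR, SE 0.15, adjusted p = 4.02e-04), with means of 32.6 ± 9.21 CPM in knockout libraries and 17.0 ± 0.535 CPM in WT libraries (SD, n = 5 libraries each). Its constitutive counterpart PPP1R15B did not pass the test (log2 -0.056, adjusted p = 0.586).

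CHAC1 (chr15:40952962-40956519, plus strand), whose product degrades glutathione, carries a TGATGNAA match in the window printed above. It measured 44.1, 50.8, 98.4, 71.0 and 57.5 CPM in knockout replicates 1 to 5, against 38.4, 39.3, 41.4, 33.7 and 38.4 CPM in WT replicates 1 to 5, and the groups did not overlap. Its log2 fold change was 0.75 (edgeR, SE 0.18, adjusted p = 0.00473). ASNS (chr7:97852118-97872542, minus strand), the other gene with that match, encodes asparagine synthetase, a classical amino acid response gene. It measured 254, 253, 335, 327 and 285 CPM in knockout replicates 1 to 5, against 245, 233, 245, 222 and 238 CPM in WT replicates 1 to 5. The groups did not overlap, but knockout 1 and 2 lay close to the highest WT libraries, and the log2 fold change was 0.30 (edgeR, SE 0.077, adjusted p = 0.00789).

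TRIB3 (chr20:362835-397559, plus strand), a pseudokinase that restrains ATF4 and CHOP activity, had the highest adjusted p of the 11 called genes of the branch. It measured 19.6, 22.4, 38.8, 29.6 and 25.0 CPM in knockout replicates 1 to 5, against 19.9, 21.9, 21.8, 18.5 and 19.1 CPM in WT replicates 1 to 5. Knockout 1 lay within the WT range and the other 4 knockout libraries above it. The log2 fold change was 0.42 (edgeR, SE 0.15, adjusted p = 0.0406), and without knockout 3 it was 0.26 and no longer passed (adjusted p = 0.064). The call was also lost without knockout 4, knockout 5, WT 1, WT 2, WT 4 or WT 5, each left out alone, with adjusted p of up to 0.0871.

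DDIT4 (chr10:72273920-72276036, plus strand) encodes REDD1, an inhibitor of mTORC1. It measured 64.5, 75.7, 145, 111 and 84.2 CPM in knockout replicates 1 to 5, against 57.3, 59.8, 64.4, 53.0 and 56.5 CPM in WT replicates 1 to 5, without overlap. The log2 fold change was 0.72 (edgeR, SE 0.18, adjusted p = 0.00642). STC2 (chr5:173314713-173329503, minus strand), a secreted glycoprotein induced by stress, measured 125, 139.7, 213, 187 and 151 CPM in the knockout libraries and 112, 104, 110.1, 100.47 and 107 CPM in the WT libraries. The groups did not overlap, and its log2 fold change was 0.61 (edgeR, SE 0.12, adjusted p = 0.00159).

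VLDLR (chr9:2621834-2660053, plus strand), a lipoprotein receptor, measured 60.8, 61.0, 98.0, 87.3 and 68.9 CPM in the knockout libraries and 60.4, 52.3, 55.5, 47.2 and 58.2 CPM in the WT libraries. Knockout 1 and 2 lay just above the highest WT library, and the log2 fold change was 0.46 (edgeR, SE 0.13, adjusted p = 0.0124). NUPR1 (chr16:28532708-28539174, minus strand), a small stress-induced nuclear protein, was the least abundant of the 38 genes, with 10 to 44 counts per library. It measured 0.571, 0.556, 1.23, 1.07 and 0.712 CPM in the knockout libraries and 0.354, 0.351, 0.222, 0.434 and 0.374 CPM in the WT libraries. The groups did not overlap at these low counts, and its log2 fold change was 1.27 (edgeR, SE 0.28, adjusted p = 0.00274).

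**Figure D2:**
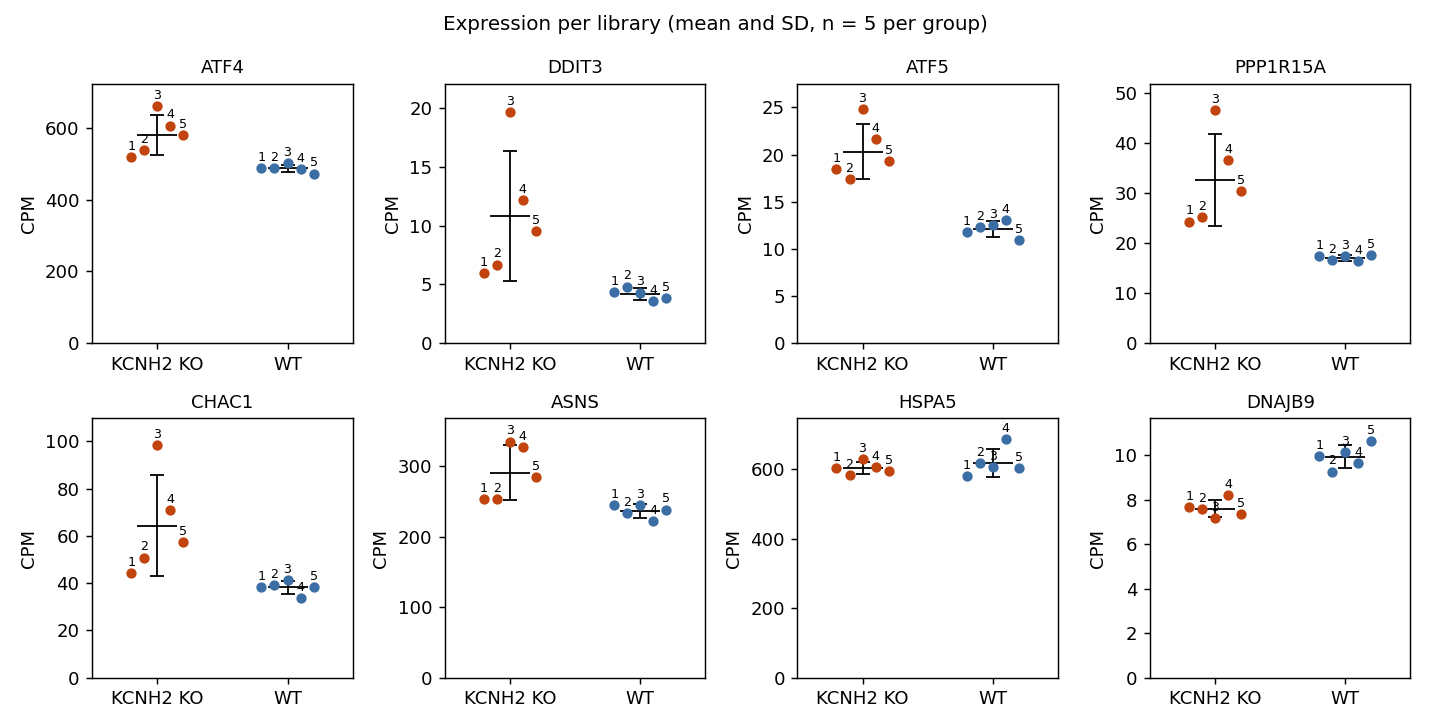
CPM of 8 genes in each library, with knockout libraries left and WT libraries right in each panel, and the mean with its SD. DDIT3, ATF5, PPP1R15A and CHAC1 separate the groups upward with wide spread in the knockout, DNAJB9 lies lower in the knockout with narrow spread, and HSPA5 overlaps.

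The knockout libraries kept a fixed order across the ATF4 branch, a pattern noted after the values had been seen. In 13 of 13 genes knockout 3 was highest, knockout 4 next, then knockout 5, with knockout 1 and 2 lowest. This order was found in 1 of 14 chaperone genes and in 7.47% of all tested genes. The mean log2 CPM of the 13 genes relative to WT was 0.25, 0.31, 1.06, 0.77 and 0.51 in knockout replicates 1 to 5, against 0.027, 0.032, 0.021, -0.060 and -0.019 in WT replicates 1 to 5. The lowest knockout library therefore lay 0.25 above the WT mean and the highest 1.06, while WT libraries stayed within a narrow band. The median coefficient of variation of the 13 genes was 22.3% in the knockout and 6.64% in WT, and it was larger in the knockout for 13 of 13 genes. Over all tested genes it was 8.30% in the knockout and 6.02% in WT, larger in the knockout for 63.6% of genes. Knockout 3 is also the knockout library that stood apart on the second component, with the lowest pseudogene share of the knockout libraries. The part of that difference in the ATF4 branch was not tested. Without knockout 3, WT 2 and WT 3, the branch median was 0.50, with 12 of 13 genes called higher.

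The sensors and XBP1 showed no call in either direction. Of these 5 genes, 0 passed edgeR's test, beside 46.0% of all tested genes, and 0 had an unadjusted p under 0.05. The DESeq2 Wald test and limma voom called 0 of 5 as well. EIF2AK3 (PERK) measured 19.3, 20.8, 26.9, 25.4 and 19.6 CPM in the knockout libraries and 25.1, 24.4, 25.4, 25.2 and 25.8 CPM in the WT libraries. Knockout 1, 2 and 5 lay below WT while knockout 4 lay within the WT range and knockout 3 above it, and the log2 fold change was -0.17 (edgeR, SE 0.088, adjusted p = 0.143). Without knockout 3 it was -0.24, which passed the test as lower (adjusted p = 0.0199). EIF2AK4 (GCN2) was at 235 to 275 CPM in the knockout and 247 to 265 CPM in WT. Its log2 fold change was -0.025 (edgeR, SE 0.043, adjusted p = 0.659). Among the wider ER genes below, the eIF2 kinase EIF2AK1 was called higher (log2 0.10, edgeR adjusted p = 0.00351). EIF2AK1 measured 149.7 to 157.3 CPM in the knockout and 141.2 to 146.6 CPM in WT, without overlap. The eIF2 kinase EIF2AK2 did not pass the test (log2 -0.077, edgeR adjusted p = 0.155).

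ERN1 (IRE1), the kinase and nuclease that splices XBP1 mRNA, measured 6.92, 5.90, 8.67, 9.25 and 8.91 CPM in the knockout libraries and 8.75, 8.66, 8.03, 7.64 and 8.16 CPM in the WT libraries. The groups overlapped, with a log2 fold change of -0.056 (edgeR, SE 0.11, adjusted p = 0.715). XBP1 measured 93.8, 97.2, 118, 104 and 93.9 CPM in the knockout libraries and 100.02, 97.3, 98.7, 98.4 and 98.8 CPM in the WT libraries. Knockout 3 was its highest library and the other 4 knockout libraries lay around the WT values, with a log2 fold change of 0.039 (edgeR, SE 0.056, adjusted p = 0.599). ATF6 measured 31.8, 32.8, 34.0, 36.2 and 33.9 CPM in the knockout libraries and 35.0, 37.2, 38.4, 32.7 and 38.4 CPM in the WT libraries, which overlapped. Its log2 fold change was -0.11 (edgeR, SE 0.051, adjusted p = 0.11), and -0.14 without WT 4, where it passed (adjusted p = 0.0269).

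Among the 14 chaperone and folding genes, 1 was higher in the knockout (CALR), 4 were lower (DNAJB9, HYOU1, PDIA6 and CANX) and 9 did not pass the test. The shares, 7.14% higher and 28.6% lower, stand beside 21.9% and 24.1% of all tested genes. The median log2 fold change was -0.024. HSPA5 encodes BiP, the major ER chaperone and a usual readout of ATF6 activity, and its promoter carries a match to the ER stress response element, printed above. It measured 604, 582, 629.9, 607 and 596 CPM in knockout replicates 1 to 5, against 581, 617, 606, 686 and 603 CPM in WT replicates 1 to 5. The groups overlapped, and the log2 fold change was -0.035 (edgeR, SE 0.041, adjusted p = 0.524). HSP90B1 (GRP94), with 2 matches of the same element, averaged 1101 ± 19.9 CPM in knockout libraries and 1104 ± 31.6 CPM in WT libraries (SD, n = 5 libraries each), with a log2 fold change of -0.0030 (edgeR, SE 0.026, adjusted p = 0.935).

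DNAJB9 (chr7:108569568-108574850, plus strand) encodes ERdj4, a BiP cochaperone that is a target of spliced XBP1. It measured 7.66, 7.57, 7.17, 8.20 and 7.35 CPM in knockout replicates 1 to 5, against 9.94, 9.26, 10.1, 9.64 and 10.6 CPM in WT replicates 1 to 5. Every knockout library lay below every WT library, with means of 7.59 ± 0.393 CPM in knockout libraries and 9.92 ± 0.512 CPM in WT libraries (SD, n = 5 libraries each). The log2 fold change was -0.39 (edgeR, SE 0.058, adjusted p = 2.14e-04), the lowest of the 38 genes. DNAJB9 overlaps THAP5 and PNPLA8, of up to 14.7 CPM on average. HYOU1 (chr11:119044189-119057202, minus strand), an ER chaperone of the HSP70 family whose promoter is printed above, measured 299, 301, 297, 296 and 279.5 CPM in the knockout libraries and 327, 337, 337, 356 and 345 CPM in the WT libraries. It was lower in all 5 knockout libraries, by a log2 fold change of -0.21 (edgeR, SE 0.030, adjusted p = 1.44e-04), which was -0.11 with an offset for transcript length and GC content.

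CALR (chr19:12938578-12944489, plus strand) encodes calreticulin, a calcium-binding lectin chaperone. It measured 831, 838, 889.8, 854 and 907 CPM in knockout replicates 1 to 5, against 644, 687, 695, 748 and 682 CPM in WT replicates 1 to 5. All 5 knockout libraries lay above WT, opposite in direction to DNAJB9 and HYOU1, with a log2 fold change of 0.32 (edgeR, SE 0.040, adjusted p = 5.48e-05). CANX encodes calnexin, its membrane-bound relative, and measured 337, 317, 336, 338 and 325 CPM in the knockout libraries and 329, 354, 362, 369 and 363 CPM in the WT libraries. Those groups overlapped, with a log2 fold change of -0.11 (edgeR, SE 0.034, adjusted p = 0.0228). The CANX call was lost without knockout 1, 2 or 5 or WT 3, 4 or 5, each left out alone (adjusted p up to 0.0589). It was also lost without knockout 3, WT 2 and WT 3 together (edgeR adjusted p = 0.0996). PDIA6, a protein disulfide isomerase, measured 526, 519, 506, 523 and 489.8 CPM in the knockout libraries and 531, 528, 541, 563 and 537 CPM in the WT libraries. It had the smallest called difference, a log2 fold change of -0.075 (edgeR, SE 0.028, adjusted p = 0.0436). The PDIA6 call was lost in 13 of 18 alternative settings, among them each single library left out other than WT 1 and WT 2 (adjusted p up to 0.109). The other 9 genes (HSPA5, HSP90B1, PDIA3, PDIA4, DNAJC3, CRELD2, SDF2L1, MANF and ERO1A) had log2 fold changes from -0.042 to 0.097.

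In ER-associated degradation, 1 of 4 genes was lower in the knockout (25%, beside 24.1% of all tested genes) and none was higher (beside 21.9%). SEL1L (chr14:81471549-81533861, minus strand), the scaffold of the HRD1 ubiquitin ligase complex, measured 27.2, 23.9, 27.7, 27.8 and 25.5 CPM in the knockout libraries and 32.9, 33.7, 33.9, 33.5 and 30.6 CPM in the WT libraries. The groups did not overlap, and the log2 fold change was -0.32 (edgeR, SE 0.048, adjusted p = 2.29e-04). SYVN1, which encodes the ligase HRD1 itself, had a log2 fold change of -0.048 (adjusted p = 0.311). Its exons overlap FAU and MRPL49, of up to 362 CPM on average. HERPUD1, a component of the same complex whose promoter is printed above, was at -0.064 (adjusted p = 0.597), and EDEM1, a lectin that delivers misfolded glycoproteins, at 0.073 (adjusted p = 0.609). SESN3 (chr11:95165513-95232541, minus strand), a sestrin that inhibits mTORC1, measured 39.3, 33.6, 34.4, 37.2 and 38.8 CPM in the knockout libraries and 45.9, 45.6, 46.3, 42.8 and 50.4 CPM in the WT libraries. It was lower in all 5 knockout libraries, with a log2 fold change of -0.33 (edgeR, SE 0.054, adjusted p = 3.82e-04), in the direction opposite to DDIT4. With the length and GC offset it was -0.22.

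The per-library means set the branches side by side. The mean log2 CPM of the 14 chaperone genes relative to WT was -0.017, -0.043, -0.0045, -0.034 and -0.027 in knockout replicates 1 to 5, against -0.041, 0.0074, -0.0092, 0.046 and -0.0035 in WT replicates 1 to 5. These groups overlap, whereas the corresponding ATF4-branch values do not. The chaperone genes had a median coefficient of variation of 3.11% in the knockout and 5.26% in WT, larger in the knockout for 3 of 14 genes. For the sensors and XBP1 (5 genes) the same mean was -0.20, -0.21, 0.088, 0.057 and -0.093 in knockout replicates 1 to 5. For the 4 degradation genes it was -0.19, -0.20, 0.075, -0.027 and -0.14 in the same libraries. Both of these also had knockout 3 highest, then knockout 4 and 5, with knockout 1 and 2 lowest, although their libraries lay on both sides of the WT mean. The difference between the branches was not given a test, since the genes were chosen with results in view.

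**Figure D3:**
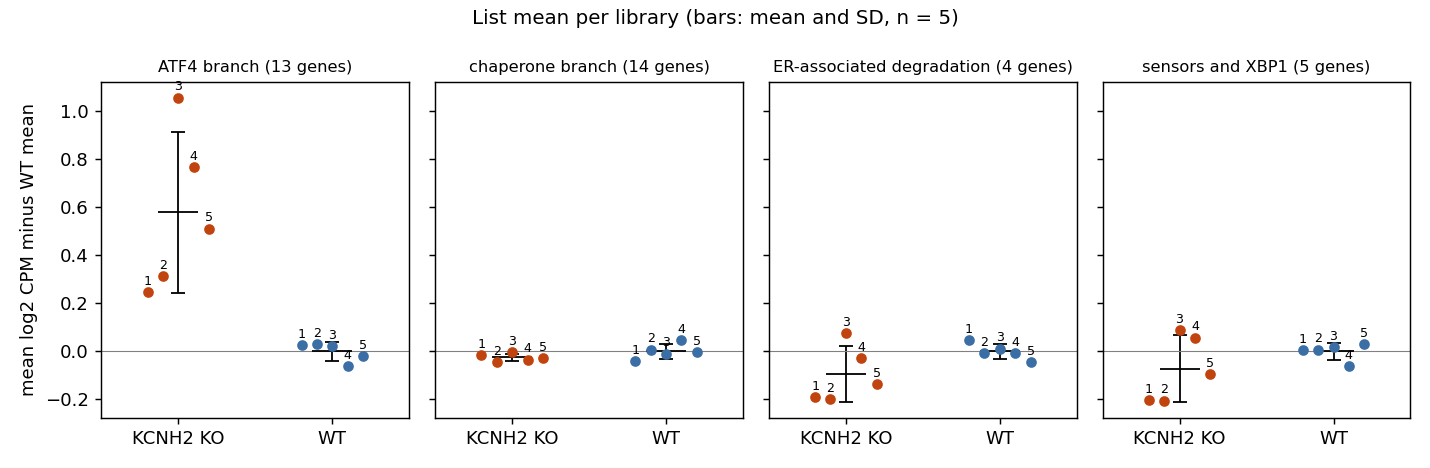
Mean log2 CPM minus the WT mean for the ATF4 branch (13 genes), the chaperone branch (14 genes), for ER-associated degradation (4 genes) and for the sensors and XBP1 (5 genes), 1 point per library, with knockout libraries left of WT and bars for the mean and SD. ATF4-branch points of the knockout spread from 0.25 to 1.06 while all chaperone points lie within 0.05 of 0.

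**Figure D4:**
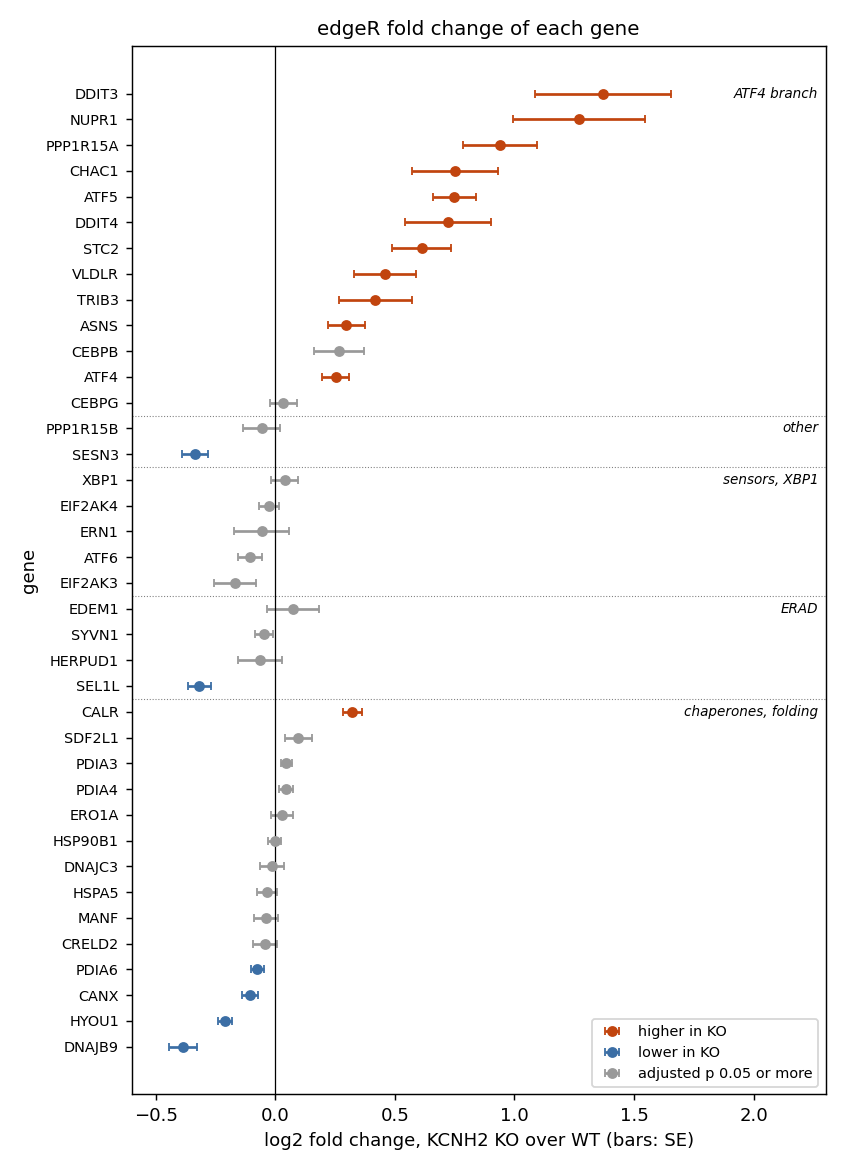
Log2 fold change (knockout over WT) of the 38 genes from edgeR, with bars of 1 SE, coloured by call. The 11 called ATF4-branch genes lie right of 0, from 0.25 for ATF4 to 1.37 for DDIT3, and the called chaperone genes other than CALR lie left of 0.

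Levels were compared between genes as CPM per kilobase of transcript. The most abundant of the 38 were CALR (454 in the knockout and 363 in WT), HSP90B1 (385 in the knockout and 386 in WT) and ATF4 (288 in the knockout and 241 in WT). HSPA5 was at 155 CPM per kilobase in the knockout and 158 in WT. DDIT3 was at 11.5 in the knockout and 4.43 in WT, DNAJB9 at 2.80 in the knockout and 3.65 in WT, and NUPR1 at 0.151 in the knockout and 0.0632 in WT. NUPR1 was the least abundant of the 38 genes per length in both groups. That rank depends on the 1 transcript taken per gene, which for NUPR1 was 5491 bases long. ATF4 mRNA exceeded DDIT3 mRNA per length in both groups.

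A wider list of 36 ATF4-linked genes outside the 38 (amino acid synthesis and transport, tRNA synthetases and stress factors) was split in direction. Of these, 10 were higher (27.8%) and 8 lower (22.2%), with a median log2 fold change of 0.029, beside 21.9% and 24.1% of all tested genes. Without knockout 3, 8 of the 36 were higher and 11 lower. Leaving out each library in turn gave 7 to 14 higher and 7 to 11 lower of the 36. Over all tested genes, leaving out each library in turn gave 3846 to 4537 higher and 4150 to 4517 lower. The largest rise among the 36 was GDF15, a secreted stress cytokine. GDF15 was at 18.7, 28.0, 189, 111 and 66.2 CPM in the knockout libraries and 10.8, 7.36, 9.41, 5.76 and 7.55 CPM in the WT libraries. No library overlapped, and the log2 fold change was 3.33 (edgeR, SE 0.57, adjusted p = 5.35e-04). ATF3, a bZIP repressor induced by stress, measured 26.8, 28.1, 61.1, 46.2 and 35.2 CPM in the knockout libraries and 26.7, 24.1, 26.8, 23.0 and 26.7 CPM in the WT libraries. Knockout 1 lay within the WT range, and the log2 fold change was 0.63 (edgeR, SE 0.20, adjusted p = 0.0193). EIF4EBP1, an inhibitor of cap-dependent translation, was also higher (log2 0.36, adjusted p = 1.84e-04), at 0.17 with the length and GC offset (adjusted p = 0.0221).

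The 3 largest falls on that list, among genes with at least 5 CPM in WT, were ALDH1L2, a mitochondrial folate enzyme (log2 -0.48, adjusted p = 3.55e-04), SLC38A2, a neutral amino acid transporter (log2 -0.33, adjusted p = 0.00142), and SLC7A11, the cystine transporter (log2 -0.31, adjusted p = 0.0103). SLC7A11 was at -0.20 with the offset (adjusted p = 0.0454). Within the knockout, however, these 36 genes often showed the library order of the ATF4 branch. Knockout 3 was highest in 31 of 36 genes (86.1%), against 25.3% of all tested genes, and the full order of knockout 3, 4, 5 and then 1 and 2 was found in 18 of 36 (50%), against 7.47%.

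A list of 50 further ER and related genes (folding, glycoprotein quality control, translocation, transport and regulators) had 20 higher (40%) and 9 lower (18%). Of all tested genes, 21.9% were higher and 24.1% lower. The list also holds the eIF2 kinases EIF2AK1 and EIF2AK2, whose values are given with the sensors above. Its median log2 fold change was 0.018. The largest rises were CREBRF, a regulator of CREB3 (log2 0.52, adjusted p = 0.014), EDEM2, a mannosidase of glycoprotein degradation (log2 0.35, adjusted p = 1.20e-04), and UFM1, a ubiquitin-like modifier (log2 0.34, adjusted p = 6.03e-04). The largest falls were SEC24D, a cargo subunit of COPII vesicles (log2 -0.44, adjusted p = 8.17e-07), EDEM3, another mannosidase (log2 -0.40, adjusted p = 1.64e-04), and CREB3L2, a membrane-bound transcription factor (log2 -0.25, adjusted p = 5.87e-04). With the length and GC offset CREB3L2 was at -0.10 (adjusted p = 0.0369). EDEM2 and EDEM3 thus moved in opposite directions. The order of knockout libraries seen in the ATF4 branch was found in 4 of these 50 genes (8%).

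In the authors' deposited table, 4 of the 38 genes carry its positive call: DDIT3 (log2 fold change 0.81), PPP1R15A (0.78), NUPR1 (0.73) and ATF5 (0.72). The share of all genes with that call was not obtained here. The edgeR fit above gave 1.37 for DDIT3, 0.94 for PPP1R15A, 1.27 for NUPR1 and 0.75 for ATF5. The cause of these differences was not tested. The authors' deposited table gives DNAJB9 at -0.36 (adjusted p = 5.47e-06) and CHAC1 at 0.58 (adjusted p = 0.00291), without that call. CALR, at 0.33 with an adjusted p of 3.09e-13 there, also lacks it, so the call does not follow the adjusted p alone.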

How the data were processed

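Per the labels' protocols, polyA libraries were read on a NovaSeq-6000 (150 paired-end cycles). The authors deposited raw counts per gene, with no normalization. A build (hg38), DESeq2 and R 3.6.3 are named in the submitters' processing notes. The aligner, counter, annotation and strandedness of the counting were not given in the sources used here. The authors' deposited comparison table holds a mean normalised signal, a log2 fold change with its SE, a score made by dividing these, and p-values before and after adjustment. It served only for symbols and for the values credited to it.

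Groups and replicate numbers came from the sample titles. Counts were tested in edgeR 4.0.16 under R 4.3.3 with TMM scaling and filterByExpr (glmQLFit, glmQLFTest, group as the term, Benjamini-Hochberg over 19163 genes). The SE is the absolute log2 fold change over the square root of F. Log2 CPM used a prior count of 2. Differences between libraries of a group exceeded sampling noise (chi-square per degree of freedom 3.59 to 26.2), and each counts as 1 replicate. Counts carry no molecular identifiers. Depth gives 13906 to 23825 counts for ATF4 but 10 to 44 for NUPR1. Positions and transcript lengths are from GENCODE 29 (GRCh38), and promoters from RefSeq. Another gene of the table overlaps an exon of 15 of the 38 genes, and 4 have a like-named pseudogene.

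Library values are given for DDIT3, ATF5, DNAJB9, TRIB3, ASNS, HSPA5, ATF4, XBP1, EIF2AK3, ERN1, ATF6 and each called gene without overlap; CEBPB and CANX were added after their values were seen. Of each wider list, up to 3 called genes per direction with the largest fold change and at least 5 CPM in the higher group are named. The 38 genes, their grouping and the wider lists were chosen with earlier results of these data known. Alternatives were DESeq2 1.42.0 size factors and Wald test, limma 3.58.1 voom, no filter, 1 CPM in 5 libraries, a replicate block, a length and GC offset (natural splines, 5 degrees of freedom), leaving out knockout 3, WT 2 and WT 3 together, and leaving out each library. The edgeR fit was also run on simulated counts, with 50 genes changed at each of 4 sizes. It called 98% of genes changed by a log2 of -1.0, 66% at -0.5, 60% at 0.5 and 88% at 1.0. Of the genes called there, 5.46% were unchanged. Changes smaller than 0.5 were not simulated. SOX17, HAND1, CGA, TTR, LUM and DCN among the lineage markers were not found in the count table, so the lineage sums leave them out.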

Additional observations from a re-analysis of the deposited data

Results flagged for a closer look

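Of the 76 sets of 5 CPM values (38 genes in 2 groups), 2 held a library far from the other 4 by Dixon's test, where chance flags about 1 set in 20. DNAJC3, which encodes a BiP cochaperone that also inhibits PERK, was at 21.0 CPM in WT 4, against 23.5 to 24.4 CPM in the other WT libraries. HYOU1 was at 279.5 CPM in knockout 5, against 296.0 to 301.0 CPM in the other knockout libraries. HYOU1 stayed called lower without knockout 5 (log2 -0.19, edgeR adjusted p = 3.77e-04).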

How the results depend on the processing

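Of the 18 called genes, 15 kept their call and direction in every one of the 18 alternative settings that tested them, and the exceptions were TRIB3, PDIA6 and CANX. NUPR1 did not pass the filter of 1 CPM in 5 libraries. The ATF4 branch held 10 to 12 genes called higher and 0 lower in each setting, with a median from 0.50 (without knockout 3) to 0.71 when single libraries were left out. The chaperone branch moved more. It had 2 genes called higher with the DESeq2 Wald test and with the length and GC offset, where PDIA3 was added. With that offset 6 were called lower, CRELD2 and MANF being added, and the median was -0.068 (4 and -0.024 as reported above). It had 2 genes called lower without knockout 3, WT 2 and WT 3, and 2 to 4 when single libraries were left out (2 without knockout 1, 2 or 5 or WT 3, 4 or 5). CANX lost its call in those same 6 fits and also without knockout 3, WT 2 and WT 3 together (edgeR adjusted p = 0.0996). TRIB3 had adjusted p of 0.0526 with the DESeq2 Wald test, 0.0599 with voom and 0.0512 with the offset. Reversals of sign concerned genes without a call. They were HSP90B1 with DESeq2 size factors (0.0072) and the Wald test (0.0090). With the offset they were PPP1R15B (0.0077), XBP1 (-0.030), ERN1 (0.12), EIF2AK4 (0.079), HSPA5 (0.0043), DNAJC3 (0.038) and SDF2L1 (-0.12). Without knockout 3, WT 2 and WT 3 they were HSP90B1 (0.0014), CEBPG (-0.00014), XBP1 (-0.029) and EDEM1 (-0.015). Leaving out single libraries gave ranges of -0.014 to 0.013 for HSP90B1, -0.12 to 0.035 for ERN1, -0.058 to 0.011 for EIF2AK4, -0.047 to 0.018 for DNAJC3, -0.022 to 0.073 for CEBPG, -0.022 to 0.079 for XBP1, -0.0096 to 0.16 for EDEM1, -0.057 to 0.0054 for HSPA5 and -0.0057 to 0.054 for ERO1A. The cause of these changes was not tested. Same-numbered libraries deviated from their group means with correlations from -0.1572 to 0.6978, and 1 of 5 knockout libraries correlated best with the WT library of its number, so the numbers were not taken as pairs. With the replicate block, 13 of the 38 genes were higher and 5 lower, beside 4258 higher and 4300 lower of all 19163 tested genes. CEBPB passed in that fit (edgeR adjusted p = 0.0316). NUPR1, at under 2 CPM in every library, is limited by depth.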

Other observations

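CDKN1A (p21, an inhibitor of cyclin-dependent kinases) is not among the 38 genes and was chosen after its values were seen. It measured 26.2, 38.4, 101, 85.3 and 59.7 CPM in knockout replicates 1 to 5, against 19.6, 15.4, 17.6, 12.8 and 17.3 CPM in WT replicates 1 to 5. Its knockout libraries lay in the order of the ATF4 branch, with knockout 3 highest and knockout 1 lowest, as did those of GDF15 and ATF3.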
